A study of Mus musculus with 24 samples.

Results

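The genes described here are the nuclear genes of oxidative phosphorylation, taken as all protein-coding nuclear genes whose symbol starts with Nduf, Sdha to Sdhd, Uqcr, Cox4, Cox5, Cox6, Cox7, Cox8 or Atp5. The rule found 94 of the 55401 gene identifiers in the SmartSeq2 count tables, carrying 93 symbols, because Atp5o has 2 overlapping identifiers, the second of which held no count. By complex, 36 members encode subunits of complex I, 8 are Ndufaf assembly factors of complex I, 4 belong to complex II, 8 to complex III, 20 to complex IV and 18 to complex V. The rule used names only and no measured value. Another 13 rows with such a prefix are not protein-coding and were left out, with 9610 counts in all.

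Oxidative phosphorylation takes place at the inner mitochondrial membrane. Complex I and complex II pass electrons from NADH and from succinate to ubiquinone, complex III hands them on to cytochrome c, complex IV reduces oxygen, and complex V uses the resulting proton gradient to make ATP. Complex II is made by nuclear genes alone and is also an enzyme of the TCA cycle, whereas the other complexes combine nuclear subunits with a few encoded by mitochondrial DNA, the mt- genes. Lymphocytes raise glycolysis when activated, and resting and regulatory T cells are known to rely more on mitochondrial respiration.

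Invariant NKT (iNKT) cells are T cells with a semi-invariant TCR that recognise lipids such as αGalCer bound to CD1d. The study gave NOD mice nanoparticles coated with αGalCer/CD1d complexes (αGalCer/CD1d-NP) and compared their liver iNKT cells (LiNKT, sorted as αGalCer/CD1d tetramer+) with those of untreated mice. For SmartSeq2, a full-length single-cell RNA method without molecular identifiers, single LiNKT cells were sorted from 3 male NOD mice left untreated and 3 given αGalCer/CD1d-NP, all 13 to 15 weeks old, with 20 µg of protein per dose, 2 doses per week, for 5 weeks. The cells of a group are not traced to individual mice, so each group is 1 sample and no p-value was computed. All intervals cover counting error at most. Poisson intervals of sums treat each read as independent and so understate that error. Chromatin fragments of the multiome experiment (nuclei) and regions of differing DNA methylation were also used.

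The tables held 284 untreated and 282 treated cells with no cell in common, and 273 and 251 of them, those for which the study lists a sub-cluster, were used. A cell had between 4056 and 1398716 counts, with medians of 635257 in untreated and 599896 in treated cells, and the median number of genes per cell was 861 and 850, respectively. Cd3e, a chain of the TCR complex, had counts in 222 untreated and 200 treated cells. At least 1 count of a macrophage or hepatocyte marker occurred in 2 untreated and 14 treated cells. All 14 belonged to sub-cluster 2, and Lyz2 counts, seen in 11 of them, were at 0 in every untreated cell. Without these cells the summed level of the members still had a log2 ratio of -0.05, treated over untreated. At least 2 of 16 proliferation genes were counted in 2 untreated and 16 treated cells. The cell labels hold a number, 1 or 2, which was read here as the sequencing lane, though the labels do not name it so. Each number had cells of both groups, and lane values are given beside the main sums.

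The members took about 1% of all counts in both groups. For each group, the counts of all its cells were added up and divided by the group's total, in counts per 1000000 (CPM). On this scale the members added up to 10645 CPM in untreated cells (95% Poisson interval 10630 to 10661) and 10299 CPM in treated cells (10282 to 10315), a difference of -3.25%. The direction of this small difference was not shared by the lanes: the difference was -8.41% in lane 1 and 8.18% in lane 2. In single cells, the median share of counts was 1.02% in untreated cells (quartiles 0.725% and 1.32%) and 0.979% in treated cells (quartiles 0.688% and 1.28%). The groups therefore overlapped over nearly their whole range, and the shift between their medians was small beside the spread among cells of 1 group.

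Individual members were seen in a minority of cells. With a filter of at least 5% of all 524 cells, 77 of the 94 members passed, 9 had counts below it, and 8 had no count. The members that passed were found in 5.15% to 48.7% of cells, with a median of 18.7%, and only 34 members were seen in 20% of cells or more. No cell lacked all members, and a cell held a median of 16 of them in both groups. After thinning each cell to 50000 reads, which left out 2 untreated and 2 treated cells, the medians were 15 and 14 members per cell. The number of members in a cell went with the number of genes in it (Spearman's rho 0.68 over 273 untreated and 0.73 over 251 treated cells, both measures sharing a cell's depth), while rho was 0.04 and 0.06 for the share of counts.

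Per kilobase of the principal transcript, the 10 highest members were Atp5b, Cox8a, Cox4i1, Cox6a1, Atp5h, Cox6b1, Uqcrh, Atp5c1, Atp5d and Atp5e, 5 of complex V, 4 of complex IV and 1 of complex III. Atp5b, the catalytic beta subunit of the ATP synthase, reached 614 CPM per kb and alone gave 11.2% of all member counts. Cox8a, a small structural subunit of cytochrome c oxidase, followed with 491 CPM per kb and was the member found in most cells (48.7%). Median levels of the members that passed were 171 CPM per kb for complex IV, 161 for complex V, 124 for complex II, 115 for complex III and 82.6 for complex I. Among the 8 assembly factors of complex I, Ndufaf8 alone passed the filter, in 9.16% of cells.

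Low levels went with repeated sequence for some members. For 7 members at least 50% of the 50-base windows of the principal transcript occur again elsewhere in GRCm38: Atp5g2, Atp5l, Ndufs5, Cox7c, Atp5h, Cox7a2l and Uqcrb. In cells where they were seen, these had a median of 138 counts per kb (range 18.8 to 566). For the 78 other members seen in at least 5 cells the median was 405 counts per kb (2.47 to 959). Levels of the 7 members are therefore uncertain, and the part of repeated sequence in them was not tested. The same holds for the 6 mt- mRNA genes below.

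**Figure D1:**
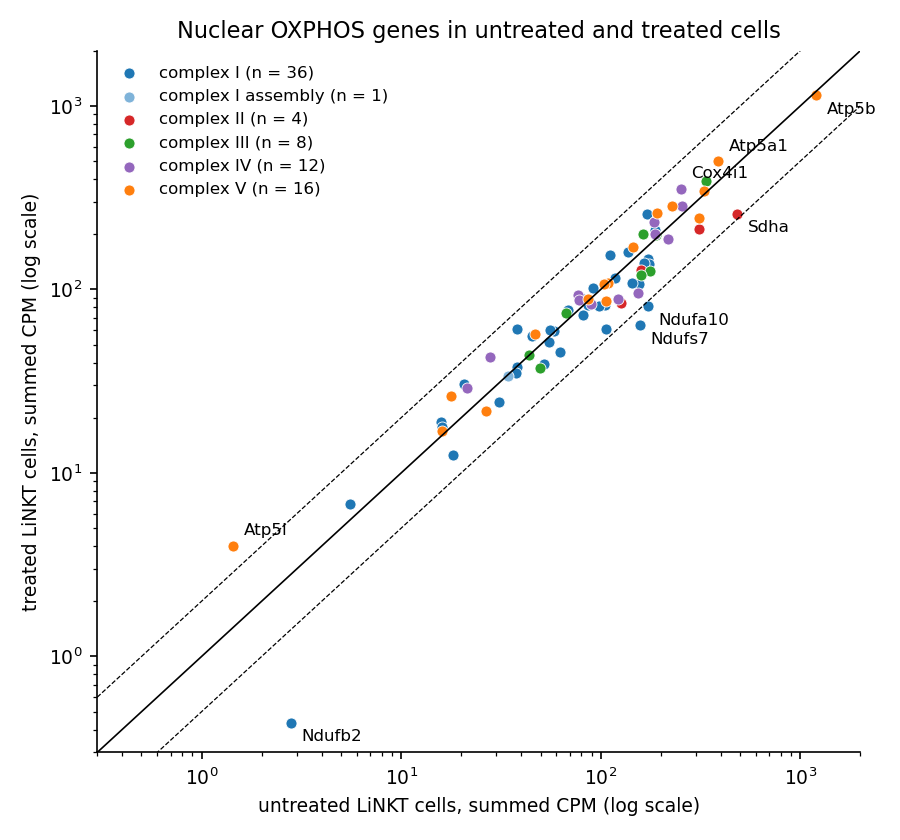
Summed CPM of the 77 members that passed the filter in untreated (x axis) and treated (y axis) LiNKT cells, both on log scales, coloured by complex; 1 point is 1 gene, the solid line marks equal levels and the dashed lines 2-fold differences. Most points lie close to the line over 3 orders of magnitude, with Atp5b at the top, Sdha below the line, and 4 genes outside the 2-fold lines: Ndufs7, Ndufa10 and the low-count genes Atp5l and Ndufb2.

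Treated and untreated cells were then compared gene by gene. Few members differed by 2-fold or more (on the log2 scale of CPM + 1, used for all ratios of single genes): 1 of 77 was higher in treated cells and 3 were lower. Among all 4113 genes that passed the same filter, 5.76% were higher and 6.03% lower by this rule. Of the members, 68 (88.3%) stayed within 1.5-fold, as did 3014 (73.3%) of all genes. The 2 sets differ in detection, as 34 of the 77 members and 959 of the 4113 genes had a count in at least 20% of cells. With that filter 0 members were higher and 0 lower by 2-fold or more, beside 2.4% and 1.46% of all genes. The median log2 ratio was 0.01 for the members and -0.01 for all genes, with 39 members above and 38 below 0. In lane 2 alone, which held fewer cells, 10 of 78 members were higher and 7 lower by 2-fold or more, as were 13.5% and 15.1% of all genes there. In lane 1 alone 0 members were higher and 4 lower, beside 7.57% and 8.24% of all genes.

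The 3 members lower by 2-fold or more all encode subunits of complex I, which gave 36 of the 77 members that passed. Ndufs7, which carries an iron-sulphur cluster next to the ubiquinone site, stood at 158 CPM without treatment and 64.1 CPM with it (log2 ratio -1.29) and was counted in 16.1% (exact binomial 95% interval 12% to 21%) and 8.76% (5.57% to 13%) of cells, respectively. It was lower by 2-fold or more in lane 1 (-1.42) and in lane 2 (-1.04), the one member for which both lanes passed that limit, as 110 of all 4113 genes did on the lower side. Ndufa10, an accessory subunit, stood at 172 CPM without treatment and 81.4 CPM with it (-1.07), and was lower in both lanes (-0.94 and -1.81). Ndufb2 was at 2.82 and 0.44 CPM, and its log2 ratio of -1.41 shrank to -0.16 when its highest cell of each group was left out. Atp5l, the only member higher by 2-fold or more, was at 1.44 and 4.02 CPM (log2 ratio 1.04), with 62.8% of its treated counts in 1 cell, and its log2 ratio without the highest cells was 0.22.

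Among the complexes, complex II had the lowest ratio of treated to untreated cells. Its 4 genes added up to 1081 CPM in untreated cells (1076 to 1086) and 684 CPM in treated cells (680 to 689), a difference of -36.7%, which was -35.6% in lane 1 and -40.7% in lane 2. Sdha, the flavoprotein that oxidises succinate, was at 485 CPM without and 259 CPM with treatment (log2 ratio -0.90). Sdhb, the iron-sulphur subunit, was at 310 and 213 CPM (-0.53). The membrane anchors Sdhc and Sdhd were at 127 and 84.8 CPM (-0.57) and at 160 and 127 CPM (-0.33), respectively.

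All 4 complex II genes were lower in treated cells in each lane and under each setting tried, including TMM and median-of-ratios scaling, where the log2 ratio of the sum was -0.67 and -0.69. Beside them, 20 of the 77 members and 1166 of all 4113 genes were lower in both lanes. Complex II was singled out in these same cells, and the settings reuse them, so their agreement is no replication. None reached 2-fold over all cells. The shares of cells with a count, without thinning, were also lower in treated cells for each of them, at 12.4% against 14.3% for Sdha, 17.5% against 21.6% for Sdhb, 10.4% against 14.3% for Sdhc and 7.57% against 10.3% for Sdhd. After thinning, the median difference in this share, treated minus untreated, was -1.18 percentage points over the 77 members and -0.258 over all 4113 genes. The groups differed in sub-clusters, as 228 untreated and 61 treated cells belonged to sub-cluster 2, 43 and 133 to sub-cluster 4, and 57 treated cells to sub-cluster 5. Within sub-cluster 2, complex II summed to 1124 CPM without and 812 CPM with treatment, within sub-cluster 4 to 912 and 705 CPM, and in treated sub-cluster 5 to 527 CPM. With 1 sample per group, a difference between mice and a difference between treatments cannot be told apart.

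The other complexes differed less. Between treated and untreated cells complex I differed by -7.9%, complex III by 0.221%, complex IV by 6.83% and complex V by 5.14%. Between lanes these values ranged from -11.6% to -0.0717% for complex I, from -12.1% to 30% for complex III, from -0.785% to 24.3% for complex IV and from 1.81% to 12.3% for complex V. Only complex II and complex V (and, narrowly, complex I) thus had the same sign in both lanes. For single members, the log2 ratio had the same sign in both lanes for 39 of 77 (50.6%), as compared to 54% of all genes, and across the members the ratios of the lanes had a Pearson's r of 0.10 and a Spearman's rho of 0.07, a description across genes, which are not independent.

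Other members with the largest differences were Ndufv3 (106 and 60.7 CPM in untreated and treated cells) and Cox5b (155 and 96 CPM) on the lower side. Cox5b, a nuclear subunit of cytochrome c oxidase, was counted in 35.2% of untreated cells (29.5% to 41.1%) and 22.7% of treated cells (17.7% to 28.4%), and in 34.7% and 22.1% of cells after thinning. On the higher side were Ndufb8 (38.2 and 61 CPM), Cox7c (27.9 and 42.7 CPM), Atp5k (17.8 and 26.3 CPM), Ndufb6 (20.8 and 30.4 CPM), Cox4i1 (252 and 354 CPM) and Ndufa8 (111 and 154 CPM). Ndufb8, Ndufb6 and Ndufa8 are accessory subunits of complex I, as is Ndufv3 on the lower side, so subunits of 1 complex stood on either side. Each of the genes named on the higher side had the same sign in both lanes, but they were picked by the ratio over the cells of both lanes, which favours a shared sign.

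**Figure D2:**
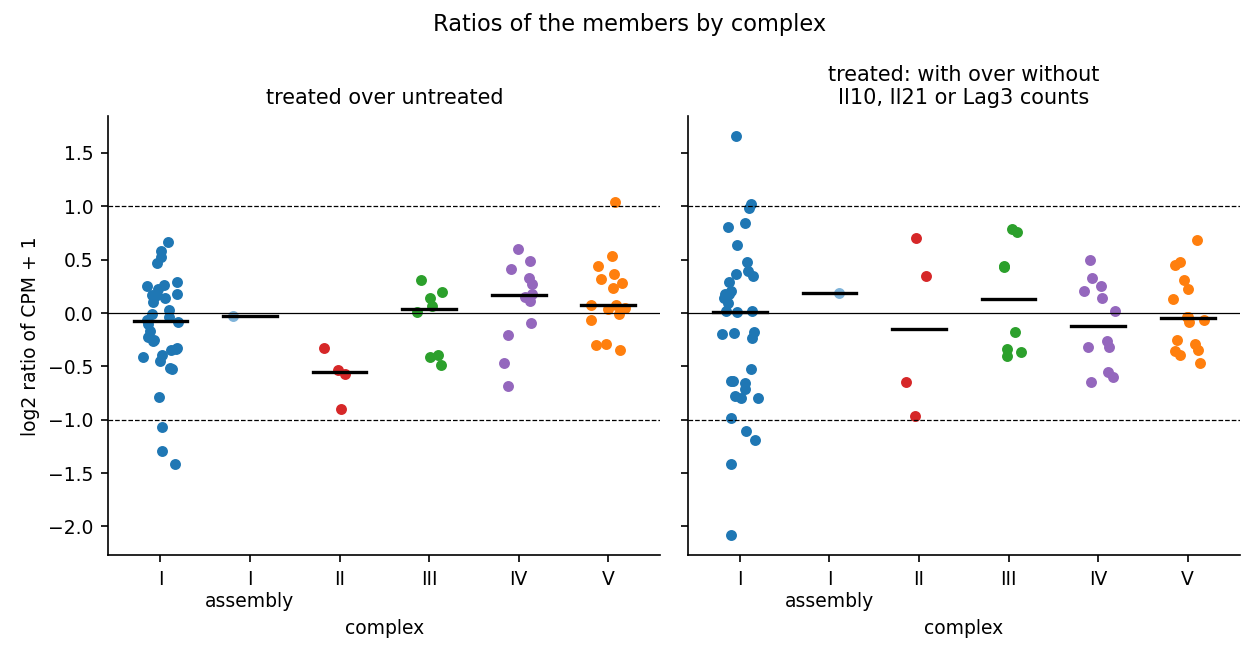
Log2 ratio of CPM + 1 for each of the 77 members, by complex, for treated over untreated cells (left) and, within treated cells, for those with over those without at least 10 counts of Il10, Il21 or Lag3 (right); 1 point is 1 gene, the bar is the median of the complex and the dashed lines mark 2-fold. The 4 complex II genes all lie below 0 on the left and on either side of 0 on the right, and complex I has the widest spread.

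Within treated cells, those that expressed Tr1-type genes were compared with the rest. Il10 and Il21 encode regulatory and helper cytokines and Lag3 an inhibitory receptor, and all 3 are among the genes known from T-regulatory type 1 (TR1) cells. A cell was counted as such with at least 10 counts of any of them, which held for 70 of 251 treated cells (27.9%, exact binomial 95% interval 22.4% to 33.9%). None of the 273 untreated cells did, which, taking 3 cells as the limit that a count of 0 allows, permits a share of up to 1.1%. Few cells lay near the limit of 10 counts: 4 treated cells had between 1 and 9 counts of the highest of these genes and 0 had 10 to 49. The 70 cells were 14 of 61 cells of sub-cluster 2, 7 of 133 of sub-cluster 4 and 49 of 57 of sub-cluster 5.

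The members summed to 10002 CPM in the 70 cells with these counts (9972 to 10031) and to 10426 CPM in the 181 cells without (10406 to 10446), a difference of -4.07%. The median share per cell was 0.929% (quartiles 0.677% and 1.21%) in cells with and 1% (0.7% and 1.3%) in cells without. Cells with the counts held more members (a median of 18 against 15), but they also held more genes (914 against 831) and more counts (653411 against 590349). After thinning to 50000 reads the medians were 16.5 and 14 members, with 664 and 606 genes per cell. The sets overlapped widely, and scaling mattered: with TMM the log2 ratio of the members' sum was -0.18, and with sub-cluster 5 in place of the cells with the counts it was 0.01.

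**Figure D3:**
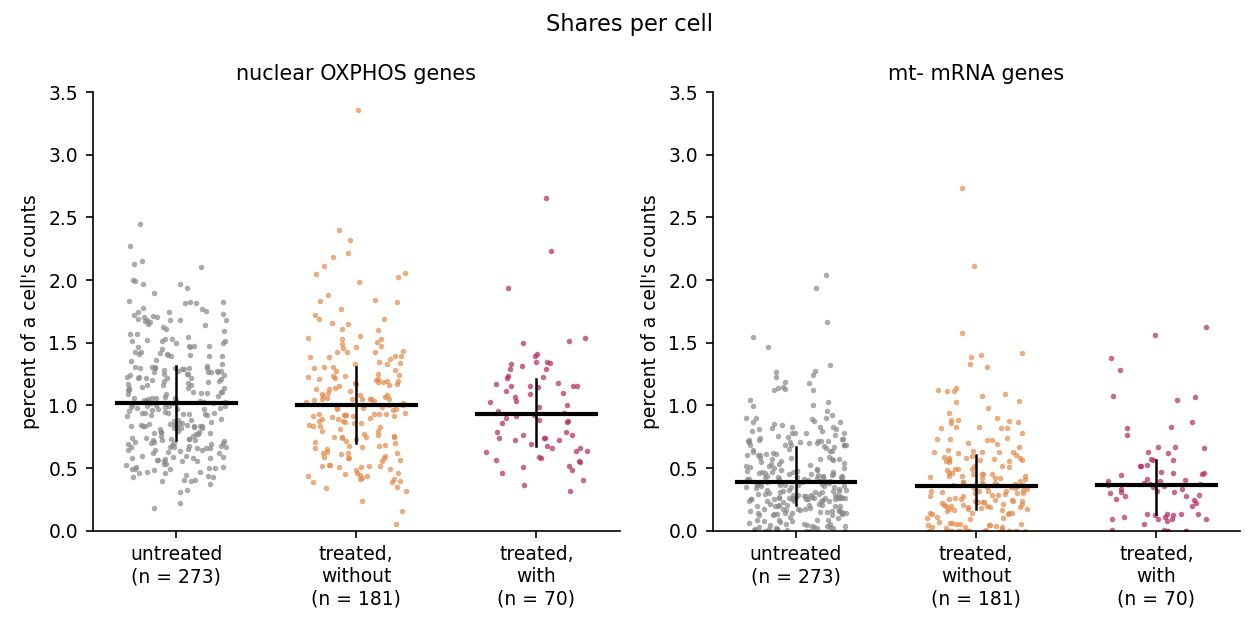
Share of a cell's counts (percent, y axis) taken by the 94 nuclear members (left) and by the 13 mt- mRNA genes (right) in untreated cells, treated cells without and treated cells with at least 10 counts of Il10, Il21 or Lag3; 1 point is 1 cell, the thick bar is the median and the vertical line spans the quartiles. The 3 sets overlap throughout, with medians of 1.02%, 1% and 0.929% on the left.

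Of the 77 members, 2 were higher and 4 lower by 2-fold or more in cells with these counts. Among all 4113 genes the shares were 9.92% higher and 14.4% lower. All 6 members are of complex I, which gave 36 of the 77. Its members had a median of 13.3% of cells with a count, as compared to 18.7% for all members that passed. With a filter of 20% of cells, 0 members were higher and 0 lower by 2-fold or more. Ndufc2 was at 116 CPM in cells with and 36.1 CPM in cells without, and was counted in 13 of 70 and 11 of 181 cells. It was followed by Ndufb5 (59.1 and 28.6 CPM), with Ndufs8 (246 and 124 CPM), Ndufb3 (57.7 and 31.6 CPM) and Ndufs4 (117 and 66.1 CPM) under 2-fold. Lower were, among others, Ndufs3 (26.7 and 117 CPM), Ndufb4 (5.22 and 15.6 CPM), Ndufa9 (76.2 and 165 CPM) and, under 2-fold, Ndufab1 (10.1 and 21 CPM). Ndufs3 and Ndufa9 rested on 4 and 3 of the 70 cells. Without each gene's highest cells, Ndufc2 stayed at a log2 ratio of 1.62 while Ndufb5 went to 0.88.

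By sub-cluster, the summed level of the members lay between 10195 CPM in treated sub-cluster 2 and 10664 CPM in untreated sub-cluster 2. The 61 cells of treated sub-cluster 2 include the 14 treated cells with a macrophage or hepatocyte marker. Treated sub-clusters 4 and 5 had 10309 and 10370 CPM, and untreated sub-cluster 4 had 10433 CPM. Single members varied more than the sum. Atp5b was at 776 CPM in treated sub-cluster 2, 1281 CPM in sub-cluster 4 and 1188 CPM in sub-cluster 5, and Sdha was at 371, 249 and 180 CPM, respectively, as compared to 517 and 342 CPM in untreated sub-clusters 2 and 4. Sdhb was at 284, 227 and 122 CPM in treated sub-clusters 2, 4 and 5, as compared to 301 and 369 CPM in untreated sub-clusters 2 and 4. For Sdhc the order was different, with 134 CPM in sub-cluster 5 above 72.2 and 66.7 CPM in sub-clusters 2 and 4. The study set the sub-clusters from the RNA of cells such as these, so the levels are given as a description.

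The 13 mt- mRNA genes, which encode the mitochondrial subunits of complexes I, III, IV and V, summed to 4464 CPM without and 4214 CPM with treatment, a difference of -5.61%. The direction was shared by the lanes (-3.82% and -11.3%), but with all cells of the tables the log2 ratio was 0.0092, so the direction depended on which cells were used. The median share per cell was 0.385% and 0.354%, and 3 untreated and 14 treated cells had no mt- mRNA count. The 6 genes with at least 98% repeated 50-base windows (mt-Co2, mt-Co3, mt-Atp6, mt-Atp8, mt-Nd3 and mt-Nd4l) had 222 counts together over all cells, as compared to 1398345 for the other 7, so no level is read from them. For the 5 genes with under 50% repeated windows (mt-Nd1, mt-Nd2, mt-Nd5, mt-Nd6 and mt-Cytb) the sum was 1656 CPM without and 1408 CPM with treatment, a difference of -15%.

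mt-Co1, the catalytic core of cytochrome c oxidase, was the highest at 2573 and 2548 CPM, and with 51.1% repeated windows its level, like that of mt-Nd4 (62.2%), is uncertain too. mt-Cytb, the core of complex III, was at 717 and 566 CPM, and mt-Nd5 of complex I at 187 and 126 CPM. None of the 7 mt- mRNA genes with fewer repeated windows differed by 2-fold. Between treated cells with and without Il10, Il21 or Lag3 counts, the mt- mRNA sum was 4134 and 4248 CPM, a difference of -2.69%. The log2 ratio was -0.0538 in lane 1, 0.0126 in lane 2 and -0.164 with TMM. For the 5 genes with under 50% repeated windows the difference was -12.7%, and for the mt- rRNA genes -17.4%. Across cells, Spearman's rho between the nuclear and the mitochondrial share was 0.01 over 273 untreated and 0.05 over 251 treated cells, a description, with the same total in the denominator of both shares.

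Several subunits of complex IV, to which Ndufa4 also belongs despite its name, exist as a broadly expressed form and a second form known from muscle, lung, testis or low oxygen, and here these forms were separated almost completely. Cox4i1, Cox6a1, Cox6b1, Cox7b, Cox8a and Ndufa4 were counted in 224, 233, 225, 123, 255 and 139 of 524 cells, respectively. Their counterparts Cox4i2, Cox6a2, Cox6b2, Cox7b2, Cox8b, Cox8c and Ndufa4l2 had 0 counts in all 524 cells. By the same limit of 3, this permits a share of cells with a count of up to 0.573%. No limit is given for the summed level, since the reads of a cell are not independent. The limit on the share covers counting error only. It does not limit the cells that express a gene, since most expressed members were also seen in a minority of cells. Cox7a1, the heart and muscle form, had 22 counts in 2 treated cells and none in untreated cells. Its relatives Cox7a2, the liver form, and Cox7a2l, which takes part in respiratory supercomplexes, were at 89.1 and 186 CPM in untreated cells and at 83.6 and 201 CPM in treated cells.

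Promoters of most silent forms had few insertions. In the multiome fragments, transposase insertions within 500 bases of the annotated start were counted per 1000000 insertions in all barcodes with at least 1000 fragments. The 77 members that passed the filter had a median of 34.3 (quartiles 24 and 43.8), as compared to 3.08 (0.0928 and 27.4) for all 21709 protein-coding genes, and 73 of the 77 were above 10, as were 42.5% of protein-coding genes. The 77 were kept by their RNA counts, whereas the protein-coding genes were not filtered by counts. This difference is therefore not read as a trait of the members. The 9 members with counts below the filter had a median of 24. For the 8 identifiers with no count the median was 0.32. Cox8a had 47.5, Cox4i1 39.1, Cox6a1 42, Cox6b1 20.5 and Cox7b 9.03 on this scale, whereas Cox8b had 0.352, Cox4i2 0.518, Cox6a2 0.288, Cox7b2 0.016 and Cox8c 0.0384. Ndufa4l2 had 1.73 and Cox6b2 4.04, while Cox7a1, with 11.2, lay above the expressed members Cox7b and Cox6c (7.83). With a window of 2 kb Ndufa4l2 had 20.2, above Cox7b at 10.7, so the order of these forms depended on the window. For the 8 identifiers with no count together, mean insertions were highest at the upstream edge of that window (0.713 per 50 bases), not near the start.

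Among the 77, Spearman's rho of the insertions was -0.06 with the share of cells with a count and 0.07 with CPM per kb, a description across genes of separate experiments. The 2 barcode endings of the fragments, 1 and 2, with 8565 and 7237 barcodes of at least 1000 fragments, are libraries that could not be assigned to untreated or treated mice here, so no treatment comparison was made with them. Between them the log2 ratio of insertions at the 77 promoters had a median of -0.07 and a range of -0.23 to 0.23. Outside the 77, Cox7a1 had 8.79 and 13.8 insertions on the same scale in endings 1 and 2, and Cox6b2 2.71 and 5.48.

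**Figure D4:**
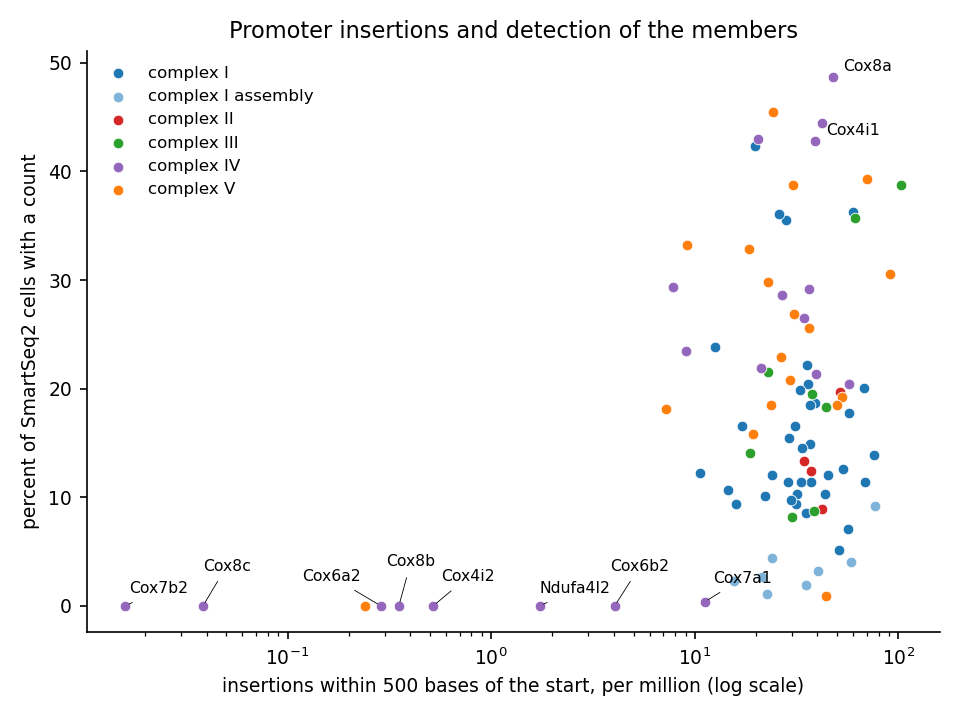
Insertions within 500 bases of the start, per 1000000 (x axis, log scale, both endings pooled), against the percent of the 524 SmartSeq2 cells with a count (y axis) for the 94 members, coloured by complex. The named complex IV forms with no or nearly no counts lie along the bottom, from 0.016 (Cox7b2) to 11.2 (Cox7a1), to the left of nearly all other members.

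**Figure D5:**
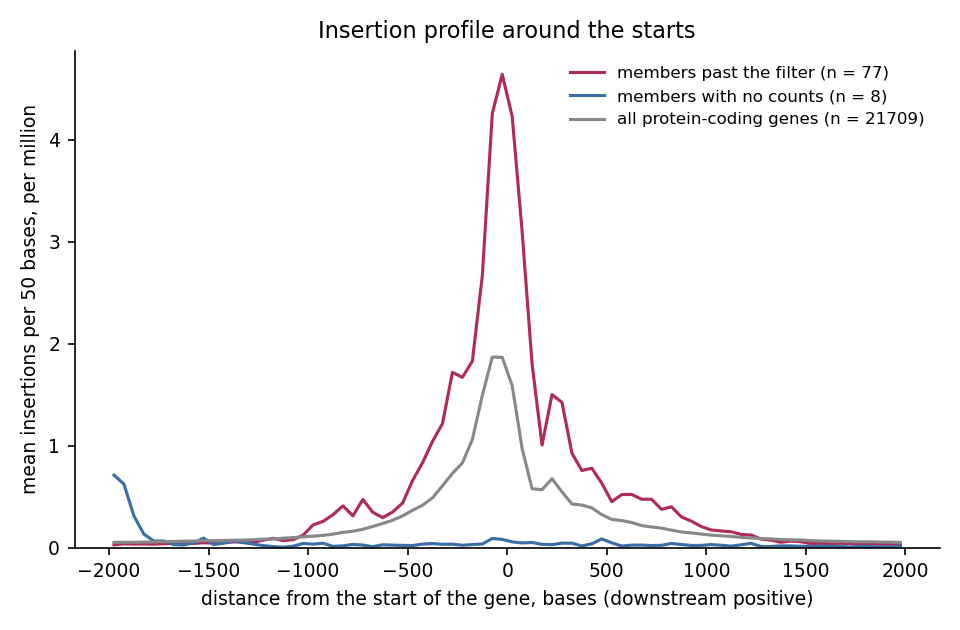
Mean insertions per 50 bases and per 1000000 around the start (x axis in bases, downstream positive) for the 77 members that passed the filter, the 8 identifiers with no count and all 21709 protein-coding genes, which were not filtered by counts. The members that passed peak at 4.64 at 25 bases before the start, all genes at 1.87, and those with no count reach 0.092 near the start and their highest value, 0.713, at the left edge.

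The RefSeq promoter table (GRCm38.p6, 250 bases before to 50 after each start) matched 74 of the 93 symbols. Both strands of these windows were searched for letters known from promoters of respiratory genes. A core of 10 bases of the site of NRF1, a regulator of nuclear respiratory genes, occurred in 19 of 74 members (25.7%) and in 5.19% of the 27025 genes in the table. CCGGAAG, the core recognised by ETS factors such as GABP, occurred in 18 members (24.3%, all genes 9.93%), and AAGATGGCG, a core of the YY1 site, in 8 (10.8%, all genes 1.64%). The GC box GGGCGG occurred in 33 members (44.6%, all genes 38.2%) and the TATA box letters TATAAA in 7 (9.46%, all genes 15.7%). Matches of different motifs overlapped once in the members. The median window of a member had 58.3% G and C and 19 CG dinucleotides, as compared to 52.7% and 7 for all genes. These are matches of letters, not measured sites.

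The following sequences are those of expressed members and silent forms, given as the bases before the first annotated exon of each gene, 5′ to 3′, with matches to these motifs in capitals. Atp5b (chr10:128083057-128083272, plus strand) is the highest member and has 2 GC boxes. Cox6a1 (chr5:115348982-115349208, minus strand) has 2 NRF1 matches and 2 GC boxes. Cox8a (chr19:7217617-7217866, minus strand) has none of the motifs in the stretch shown. Cox8b (chr7:140900447-140900696, minus strand) and Cox7b2 (chr5:71548206-71548455, minus strand) had no counts and hardly any insertions. Cox8b has none of the motifs. Cox7b2 has a GC box and, far from the start, the TATA box letters on the opposite strand. The stretches hold 9 (Atp5b), 21 (Cox6a1), 11 (Cox8a), 1 (Cox8b) and 9 (Cox7b2) CG dinucleotides.
Atp5b: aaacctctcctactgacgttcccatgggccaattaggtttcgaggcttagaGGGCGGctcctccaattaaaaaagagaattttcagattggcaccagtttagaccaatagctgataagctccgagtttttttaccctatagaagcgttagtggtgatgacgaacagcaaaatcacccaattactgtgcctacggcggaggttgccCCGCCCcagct
Cox6a1: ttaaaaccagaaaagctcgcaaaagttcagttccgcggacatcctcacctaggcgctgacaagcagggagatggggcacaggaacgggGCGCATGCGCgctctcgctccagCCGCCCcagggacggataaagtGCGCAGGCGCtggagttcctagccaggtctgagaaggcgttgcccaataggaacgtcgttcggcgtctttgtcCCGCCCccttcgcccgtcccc
Cox8a: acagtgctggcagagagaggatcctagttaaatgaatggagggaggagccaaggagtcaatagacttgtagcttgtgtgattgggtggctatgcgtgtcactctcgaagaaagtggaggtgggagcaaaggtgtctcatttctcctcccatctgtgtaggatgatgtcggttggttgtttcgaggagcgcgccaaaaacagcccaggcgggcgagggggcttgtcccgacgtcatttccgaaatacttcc
Cox8b: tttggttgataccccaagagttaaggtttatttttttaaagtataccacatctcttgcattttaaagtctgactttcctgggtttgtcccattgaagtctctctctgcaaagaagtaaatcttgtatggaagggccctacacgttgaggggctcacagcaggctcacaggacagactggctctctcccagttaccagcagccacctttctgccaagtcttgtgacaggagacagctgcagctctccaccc
Cox7b2: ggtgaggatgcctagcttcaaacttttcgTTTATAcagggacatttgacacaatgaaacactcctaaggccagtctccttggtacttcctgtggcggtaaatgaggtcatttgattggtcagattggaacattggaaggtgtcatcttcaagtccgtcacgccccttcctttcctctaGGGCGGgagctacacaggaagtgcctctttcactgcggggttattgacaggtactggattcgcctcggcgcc

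The methylation data came from other, older mice than the SmartSeq2 cells, the untreated ones female, so the assays were not made on the same animals. The authors' caller reported 2873 regions between untreated and treated LiNKT cells, for which the paper describes replicates of each group. Of these regions, 69% had a lower mean in treated cells. None of the regions lay within 2 kb of the start of a member (0.918% of protein-coding genes had one there), and 1 lay in the body of a member. A region within 2 kb of the start or in the gene body was present for 6.27% of 21884 protein-coding genes and for 1.06% of the members. Of these 1373 protein-coding genes, 1337 had a region in the gene body, and gene length was not taken into account. The single region, at chr13:114304741-114305041 (mm10), lies in Ndufs4, an accessory subunit of complex I, 83.5 kb downstream of the start on the minus strand and outside annotated exons. The authors' mean methylation over its 14 CpGs was 86.2% in untreated and 60.4% in treated cells. Ndufs4 was at 97.6 CPM without and 81.2 CPM with treatment, with a lower level in treated cells in both lanes.

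Related genes outside the rule were looked at in 4 lists. Of 13 regulators of mitochondrial genes, Myc was the only one counted in at least 5% of cells: it was at 222 CPM without and 80.9 CPM with treatment, seen in 35 and 13 cells, and in none of the 70 treated cells with Il10, Il21 or Lag3 counts. The summed level of all 13 went the other way between these sets, with 619 CPM in cells with and 278 CPM in cells without the counts. In cells with the counts, this sum came only from genes counted in under 5% of all cells, since Myc had none there. The coactivator Ppargc1a had no count, and Nrf1 and Tfam, the mitochondrial transcription factor, were seen in 15 and 12 untreated and 10 and 9 treated cells. Among 4 other subunits and carriers all passed and none differed by 2-fold. Their summed difference was -31%, with -40.1% in lane 1 and -5.01% in lane 2. The 4 genes were Cyc1 of complex III (log2 ratio -0.75), cytochrome c (Cycs, -0.10), the ATP synthase inhibitor Atpif1 (0.62) and Usmg5 (0.10).

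Of 25 assembly factors outside the rule 8 passed, and the sum of all 25 differed by 0.896%. Of the 8, 1, the copper chaperone Cox17, was lower by 2-fold or more (11.5 and 0.181 CPM, log2 ratio -3.41), as were 6.03% of all genes. Cox17 had counts in 14 untreated and 13 treated cells. Of 12 genes of the TCA cycle 9 passed, and the sum of the list differed by 8.52% between treated and untreated cells, with 16.2% in lane 1 and -6.35% in lane 2, so its direction was not shared by the lanes.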

How the data were processed

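The authors aligned SmartSeq2 reads to GRCm38 with STAR and deposited raw counts per gene and cell, without molecular identifiers. Cells listed in the study with a sub-cluster were kept. Symbols and gene types came from GENCODE M21. The counts of all cells in a group were added and expressed as CPM. With 1 sample per group no test was run. Sums carry exact Poisson and shares exact binomial 95% intervals, which cover counting error at most. The Poisson intervals treat each read as independent. PCR reads are not independent molecules, so these intervals are too narrow even for counting error. A gene entered the comparisons with a count in at least 5% of cells and 10 summed counts, and ratios used CPM + 1. Members and lists were chosen with earlier results of these data known. Genes named were the 10 highest per kb, the 8 with the largest ratio in each direction between groups, the 5 in each direction between the sets of treated cells, and the tissue isoforms; the complex II genes, Ndufs4, and genes of other lists were named for their group, and Cox7a2l and the mt- genes were picked once their values had been seen. Some genes that this rule names are not reported here. The deposited regions of differing methylation (mm10) hold the authors' mean methylated fraction per group, a q-value, and scores for the difference and the number of CpGs. The deposited fragment file lists a count of read pairs per fragment, and both ends of each fragment were taken as insertions. The q-values and differences belong to the authors' own comparison, which set the list of regions, and are not printed. Alternatives covered cells, scaling (TMM of edgeR 4.0.16, median of ratios of DESeq2 1.42.0), filters, prior, fold, lane, the choice of treated cells and windows. The scripts used Python 3.11.15 and R 4.3.3. Only the comparison of expression was tested on simulated data, with counts drawn as independent, which PCR reads are not.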

Additional observations from a re-analysis of the deposited data

How the results depend on the processing

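Each group was 1 sample, so no replicate could be left out. Thinning to 200000 in place of 50000 reads moved the median share of cells per member from 18.1% to 18.7% in untreated and from 17.3% to 17.7% in treated cells. No paired analysis was possible because the groups compared hold 1 sample each and no result comes from a test. For the summed level of the members, treated over untreated (log2 ratio -0.05), the ratio was -0.0355 with all cells of the tables, -0.0551 with cells of at least 500 genes, -0.0604 with TMM, -0.0797 with median of ratios, -0.127 in lane 1, 0.113 in lane 2 and -0.0656 without proliferating cells. For the mt- mRNA sum (-0.08) it was, in that order, 0.0092, -0.0688, -0.096, -0.115, -0.0562 and -0.174 up to lane 2, and -0.066 as a mean of per-cell CPM. For the members in treated cells with over without Il10, Il21 or Lag3 counts (-0.06), it was -0.0528 with cells of at least 500 genes, -0.0869 as a mean of per-cell CPM, -0.185 with TMM, -0.159 with median of ratios, -0.0881 in lane 1, -0.00601 in lane 2, -0.054 without proliferating cells, -0.0379 with at least 1 count, 0.0132 with sub-cluster 5 in place of the cells with counts, and -0.0653 without cells with macrophage or hepatocyte markers. For the mt- mRNA sum in these sets (-0.04), it was -0.0289 with all cells, -0.053 with cells of at least 500 genes, -0.164 with TMM, -0.138 with median of ratios, -0.0538 in lane 1, 0.0126 in lane 2, -0.0973 without proliferating cells, -0.0275 with at least 1 count, -0.121 for Il10 or Il21 without Lag3, -0.193 with sub-cluster 5 and -0.0819 without the marker cells.

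Members higher by 2-fold in treated cells (1) numbered 0 as a mean of per-cell CPM, with a filter of 20% of cells, a prior of 10 CPM, in lane 1 and without each gene's highest cell, 2 with a filter of 10 summed counts only, 3 at 1.5-fold and 10 in lane 2. Members lower (3) numbered 1 as a mean of per-cell CPM and with a prior of 10 CPM, 0 with the 20% filter, 6 at 1.5-fold and 7 in lane 2. Of all genes, 12.5% were higher and 14.2% lower at 1.5-fold, 20.1% and 17.2% with 10 summed counts only, 4.04% and 4.3% with a prior of 10 CPM, and 2.4% and 1.46% with the 20% filter. In cells with over without the counts, members higher (2) numbered 1 as a mean of per-cell CPM, with TMM, median of ratios, a prior of 10 CPM, at least 1 count and without each highest cell, 0 with the 20% filter, 10 at 1.5-fold, 4 in lane 1, 13 in lane 2, 7 for Il10 or Il21 without Lag3 and 4 with sub-cluster 5. Members lower (4) numbered 7 with 10 summed counts only and without proliferating cells, 0 with the 20% filter, 16 at 1.5-fold, 10 in lane 1, 15 in lane 2, 12 for Il10 or Il21 without Lag3 and 9 without each highest cell. Of all genes, 22.6% were lower at 1.5-fold, 17.4% in lane 1, 27.3% in lane 2, 27.9% with 10 summed counts only, 15.5% without proliferating cells, 18.9% for Il10 or Il21 without Lag3 and 23% without each highest cell, and 19.1% were higher at 1.5-fold, 12.2% in lane 1, 19% in lane 2, 10.6% for Il10 or Il21 without Lag3 and 10.1% with sub-cluster 5. Median shares per cell in lane 2 were 0.936% in untreated cells, 0.914% in treated cells and 0.919% in treated cells without the counts. With a window of 2 kb the median of promoter insertions was 40.4 per 1000000 insertions. The median log2 ratio of the members (0.01) ranged from -0.0699 in lane 1 to 0.108 in lane 2, and was below 0 also as a mean of per-cell CPM, with TMM and with median of ratios. Members lower in cells with the counts numbered 6 with TMM and with median of ratios, beside 16.3% and 15.9% of all genes. The cause of the differences was not tested. Leaving out cells with macrophage or hepatocyte markers and leaving out each gene's highest cell were chosen after seeing the data.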
